A study of Sus scrofa with 16 samples.

Results

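Cathepsins are the proteases of the lysosome, and 10 of their genes, CTSA, CTSB, CTSC, CTSD, CTSF, CTSH, CTSK, CTSL, CTSS and CTSZ, are described here in aortic valve interstitial cells of the pig. They were chosen by name as members of the family, 10 of 29552 named genes in the count table, and all 10 had enough reads to be tested. The table holds 3 more cathepsin genes, CTSO, CTSV and CTSW, which are given for comparison only. The cells, fibroblast-like cells of the leaflet, came from female and male animals 5 to 6 months old. They were kept for 48 hours in Media 199 with 1% fetal bovine serum on tissue culture plastic, where the submitters regard them as myofibroblasts, or on PEG-norbornene hydrogels of about 5.8 kPa, where they regard them as quiescent fibroblasts. Female plastic, female gel, male plastic and male gel had n = 4 libraries each, numbered 1 to 4. Plastic and gel differ in material as well as in stiffness, so the effects of the 2 properties cannot be told apart, and the labels call the replicates biological without saying whether each was 1 animal or a pool.

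Most cathepsins are cysteine proteases of the papain family. They are made as inactive proenzymes, carried to the lysosome by mannose 6-phosphate receptors and sortilin, and activated there by acid and by other proteases. CTSD is an aspartic protease and CTSA a serine carboxypeptidase. Inside the cell these enzymes digest proteins delivered by endocytosis and autophagy. When secreted, cathepsins K, L and S cut collagen or elastin, the fibres that give the valve leaflet its strength and recoil, and cystatins inhibit the cysteine members.

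Library totals ran from 16.93 to 27.48 M counts, lowest in male gel 2. Values below are CPM, the usual unit of counts scaled to a common library total, adjusted by TMM for library composition. Each gene's CPM is compared between libraries only, since exon lengths were not used here. A gene is called where the adjusted p of the test over all 14530 tested genes is under 0.05, and log2 changes have their standard error (SE). No member passed the low count filter through 1 surface alone: the lowest count of any member in any library was 43, for CTSL in female plastic 3. All 11 fibroblast and valve interstitial markers listed were tested. On plastic 2 rose and 4 fell in female cells, beside 12.7% and 11.3% of all tested genes. In male cells 4 rose and 3 fell, beside 12.9% in each direction. The highest marker was FN1, fibronectin, at a mean of 22400 CPM in female plastic and 14600 CPM in female gel. In male cells FN1 averaged 22200 CPM on plastic and 15100 CPM on gel. PDGFRA, a growth factor receptor of fibroblasts, went the other way, at 285 CPM in female plastic, 1490 CPM in female gel, 303 CPM in male plastic and 1650 CPM in male gel, and the matrix proteoglycans LUM and DCN also fell in both sexes.

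On plastic, 6 of the 10 cathepsins fell and 1 rose in female cells, and 3 fell and 1 rose in male cells. CTSL, CTSC and CTSH fell in both sexes and CTSK rose in both. CTSB, CTSD and CTSF fell in female cells and were not called in male cells, and CTSA, CTSS and CTSZ were called in neither sex. Of all tested genes, 11.3% were called lower and 12.7% called higher on plastic in female cells, and 12.9% lower and 12.9% higher in male cells. The median log2 change of the 10 members was -0.74 in female and -0.37 in male cells, against -0.04 and -0.03 over all tested genes. Plastic and gel libraries did not overlap for 7 members in female and 4 in male cells, where 27.7% and 28.9% of all tested genes did not overlap. RNA here is from bulk cultures, in which fewer cells of a type and less RNA per cell cannot be told apart.

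**Figure D1:**
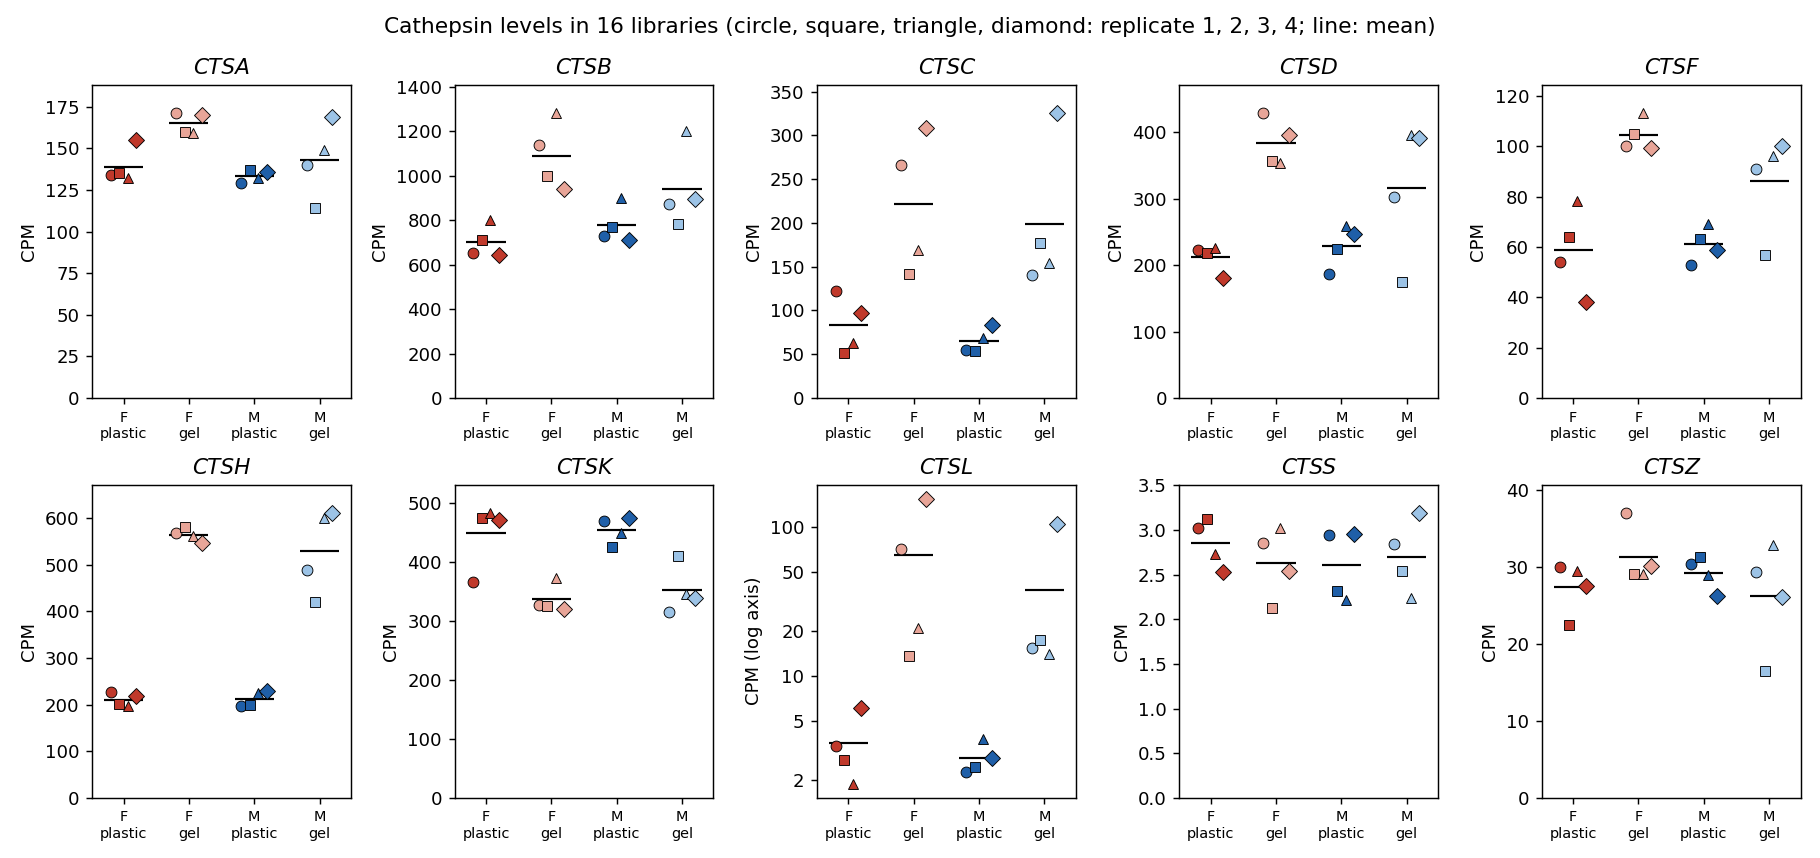
CPM of each cathepsin in the 16 libraries, on linear axes from 0 except CTSL (log axis), with the group mean as a line. CTSH separates plastic (196 to 229 CPM) from gel (421 to 611 CPM) in both sexes, whereas CTSS stays between 2.13 and 3.19 CPM throughout.

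The row named CTSL had the largest change of the 10 members. Cathepsin L is a cysteine endopeptidase with a broad range of substrates in the lysosome, but whether this row or CTSV is the pig counterpart of human cathepsin L was not settled by the files. It had 3.38, 2.71, 1.89 and 6.12 CPM in female plastic 1 to 4, against 70.6, 13.5, 20.9 and 154 CPM in female gel 1 to 4. In male cells it had 2.27, 2.45, 3.77 and 2.79 CPM on plastic, against 15.4, 17.4, 14 and 104 CPM on gel. Every plastic library was thus below every gel library, while the gel libraries differed widely among themselves: female gel 1, female gel 4 and male gel 4 stood above the other 5. The log2 change was -4.19 (SE 0.83, adjusted p = 0.0016) in female cells and -3.73 (SE 0.83, adjusted p = 0.00358) in male cells. Without female gel 4 the female change was -3.31 (adjusted p = 0.00458), and without male gel 4 the male change was -2.46 (adjusted p = 0.0119). The male call was lost with limma-voom (-3.14, adjusted p = 0.0605).

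The identity of the CTSL row needs care. CTSL lies on chromosome 10 from 27668523 to 27674705 of Sscrofa11.1, and the RefSeq gene table lists CTSL, CTSL1 and CTSL2 as synonyms of CTSV, a related gene 2460464 bp away on the same chromosome (25202360 to 25208058). CTSV had a mean of 221 CPM in female plastic, 226 CPM in female gel, 221 CPM in male plastic and 235 CPM in male gel, and was not called in either sex (log2 change -0.03, SE 0.11, adjusted p = 0.864 in female cells; -0.09, SE 0.11, adjusted p = 0.583 in male cells). Reads that fit both genes cannot be assigned from a count table. With the counts of both genes summed, an alternative added once the values were known, the log2 change was -0.37 (adjusted p = 0.0839) in female and -0.29 (adjusted p = 0.172) in male cells, and neither was called. CTSV makes up most of that sum, as CTSL averaged 3.52 CPM in female plastic and 64.7 CPM in female gel. In male cells CTSL averaged 2.82 CPM on plastic and 37.6 CPM on gel. The level of the sum is therefore mostly that of CTSV, which changed by -0.03 in female and -0.09 in male cells. The larger fall of the sum also holds the fall of CTSL, so the sum does not test the CTSL row alone.

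CTSK was the single member that rose on plastic. It encodes cathepsin K, the collagen-cutting enzyme best known from bone-resorbing osteoclasts and also made by fibroblasts. CTSK had 365, 473, 482 and 471 CPM in female plastic 1 to 4, against 326, 325, 373 and 320 CPM in female gel 1 to 4. In male cells it had 469, 424, 448 and 473 CPM on plastic, against 315, 410, 345 and 339 CPM on gel. The male groups did not overlap, and in female cells plastic 1 lay below gel 3. The rise was small, 1.33-fold in female cells (log2 0.41, SE 0.11, adjusted p = 0.00865) and 1.29-fold in male cells (log2 0.37, SE 0.11, adjusted p = 0.0173), with a higher value on plastic in 8 of 8 cultures. In male cells CTSK was not called once male gel 1 was left out (0.32, adjusted p = 0.0517), nor without male 4, female 1 and female 4 on both surfaces (0.34, adjusted p = 0.0545). The share of CTSK in the summed counts of the 10 members was 20.2 to 25.7% in the 8 plastic libraries, against 10.5 to 18.8% in the 8 gel libraries. This share also reflects the lower sum on plastic, so it does not measure the rise of CTSK alone. The 10 members summed to a median of 1860 CPM in female plastic and 3020 CPM in female gel, and 1940 CPM in male plastic and 2680 CPM in male gel.

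CTSS, an elastin-cutting enzyme of macrophages and other antigen-presenting cells, was low, at 45 to 89 counts per library. Its mean was 2.85 ± 0.274 CPM in female plastic and 2.63 ± 0.393 CPM in female gel, 2.61 ± 0.398 CPM in male plastic and 2.70 ± 0.407 CPM in male gel (SD, n = 4 each). All 4 groups overlapped. The log2 change on plastic was 0.11 (95% interval -0.30 to 0.53) in female cells and -0.05 (-0.47 to 0.37) in male cells. CTSS lies next to CTSK on chromosome 4, from 98415273 to 98442952, with CTSK from 98389459 to 98404969. The 2 genes are 10303 bp apart, and 0 other annotated genes start between them. Of these neighbours, CTSK was called on plastic in both sexes and CTSS in neither, a difference between genes that was not tested.

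Among the members that trim peptides from their ends, CTSH and CTSC fell in both sexes. CTSH encodes an aminopeptidase of the papain family. CTSH had 228, 201, 196 and 218 CPM in female plastic 1 to 4, against 569, 582, 562 and 547 CPM in female gel 1 to 4. In male cells it had 198, 199, 224 and 229 CPM on plastic, against 490, 421, 600 and 611 CPM on gel. The plastic libraries of both sexes lay in a narrow range well below every gel library. The log2 change was -1.42 (SE 0.11, adjusted p = 2.43e-07) in female cells and -1.32 (SE 0.11, adjusted p = 5.13e-07) in male cells, the smallest adjusted p among the members in each sex.

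CTSC encodes dipeptidyl peptidase 1, which activates the granule proteases of immune cells by removing dipeptides. It had 122, 51.2, 63.0 and 96.6 CPM in female plastic 1 to 4, against 266, 142, 169 and 308 CPM in female gel 1 to 4. In male cells it had 54.6, 53.9, 68.1 and 83.0 CPM on plastic, against 140, 177, 154 and 325 CPM on gel. No plastic library reached the lowest gel library of its sex, and the change within cultures was more even than the levels, from 2.18-fold lower in female 1 to 3.92-fold lower in male 4. The log2 change was -1.41 (SE 0.32, adjusted p = 0.00362) in female and -1.62 (SE 0.32, adjusted p = 0.0013) in male cells.

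CTSB, an abundant lysosomal enzyme that cuts within chains and also removes dipeptides from the carboxyl end, had 650, 712, 799 and 641 CPM in female plastic 1 to 4, against 1140, 1000, 1280 and 940 CPM in female gel 1 to 4. In male cells it had 729, 771, 899 and 711 CPM on plastic, against 873, 784, 1200 and 897 CPM on gel. The female groups were apart, and the male groups overlapped. CTSB fell 1.56-fold in female cells (log2 -0.64, SE 0.14, adjusted p = 0.00269). In male cells the log2 change was -0.27 (95% interval -0.57 to 0.03, adjusted p = 0.157). CTSB was lower on plastic in 8 of 8 cultures. CTSZ, a carboxypeptidase also called cathepsin X, averaged 27.4 ± 3.50 CPM in female plastic and 31.3 ± 3.81 CPM in female gel, 29.3 ± 2.22 CPM in male plastic and 26.2 ± 7.01 CPM in male gel (SD, n = 4 each). Its log2 changes of -0.20 (SE 0.17, adjusted p = 0.429) in female and 0.16 (SE 0.17, adjusted p = 0.525) in male cells were within the spread between libraries.

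CTSD, the main aspartic protease of the lysosome, and CTSF, a papain-family endopeptidase, showed the same order of groups. CTSD had 222, 218, 225 and 181 CPM in female plastic 1 to 4, against 428, 356, 353 and 396 CPM in female gel 1 to 4. In male cells CTSD had 187, 224, 259 and 246 CPM on plastic, against 303, 175, 396 and 391 CPM on gel, with male gel 2 below every male plastic library. CTSF had 54.2, 63.9, 78.3 and 38.1 CPM in female plastic 1 to 4, against 99.9, 105, 113 and 99.1 CPM in female gel 1 to 4. In male cells CTSF had 53.0, 63.2, 69.2 and 58.8 CPM on plastic, against 91.0, 56.9, 96.0 and 100 CPM on gel, and male gel 2 lay among the male plastic libraries.

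In female cells CTSD fell by 0.86 on the log2 scale (SE 0.19, adjusted p = 0.00352) and CTSF by 0.83 (SE 0.19, adjusted p = 0.00407). In male cells the log2 changes were -0.47 (SE 0.19, adjusted p = 0.0843) for CTSD and -0.50 (SE 0.19, adjusted p = 0.0647) for CTSF. With the culture as a block, the male change of CTSF was called (-0.47, adjusted p = 0.0489) and that of CTSD was not (-0.41, adjusted p = 0.0762). Without male gel 2, both were called in male cells, CTSD at -0.67 (adjusted p = 0.00108) and CTSF at -0.65 (adjusted p = 0.00967). CTSF in male cells was also called without female plastic 3 (adjusted p = 0.0454) or female plastic 4 (0.0284). CTSA, a serine carboxypeptidase that also protects the lysosomal enzymes beta-galactosidase and neuraminidase, averaged 139 ± 10.6 CPM in female plastic and 165 ± 6.27 CPM in female gel. In male cells CTSA averaged 133 ± 3.42 CPM on plastic and 143 ± 22.7 CPM on gel (SD, n = 4 each). Its female groups did not overlap, yet its log2 change of -0.25 (SE 0.10, adjusted p = 0.0864) was not called, nor was that of -0.10 in male cells (adjusted p = 0.513). Without male gel 2, the female change of CTSA was called (-0.25, adjusted p = 0.0188).

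**Figure D2:**
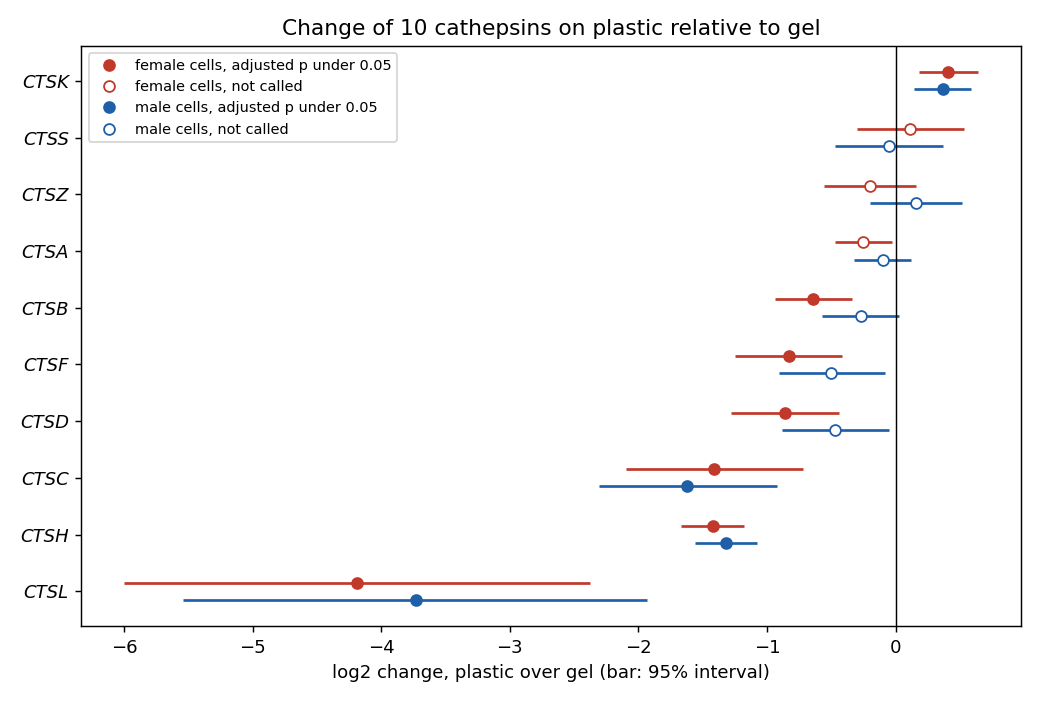
Log2 change of each cathepsin on plastic over gel, female cells above male cells, with 95% intervals; filled points were called. CTSL, CTSH and CTSC lie left of 0 in both sexes and CTSK right of 0, while CTSB, CTSD and CTSF are called in female cells only, at -0.64, -0.86 and -0.83.

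The counts of called members depended on single libraries and cultures. Without male gel 2 and female plastic 4, which stood apart in earlier work on these data, 7 members fell and 1 rose in female cells and 6 fell and 1 rose in male cells, CTSA being added in both sexes (adjusted p = 0.0036 and 0.0439). Calls over all genes were also more numerous there, with 2086 lower and 2150 higher in female cells, against 1638 and 1841 with every library, and 2022 lower and 2121 higher in male cells, against 1871 and 1870. Without the cultures male 4, female 1 and female 4, 3 fell and 1 rose in female cells and 3 fell and 0 rose in male cells. Over all genes 773 were then called lower and 1175 higher in female cells, and 1411 lower and 1689 higher in male cells. CTSL, CTSC and CTSH were the members that fell in this smaller set in both sexes, and CTSB (adjusted p = 0.0972), CTSD (0.188) and CTSF (0.126) were no longer called in female cells. CTSL changed by -2.88 in female and -2.44 in male cells there (adjusted p = 0.000214 and 8.64e-05).

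Female and male cells were then compared on each surface. Of the 10 cathepsins 0 were called on gel and 0 on plastic, by edgeR, DESeq2 and limma-voom alike, and 0 had an unadjusted p under 0.05 on either surface. A p that misses the threshold does not show that the sexes were alike. Of all tested genes 0.103% were called on gel and 0.124% on plastic. Female and male groups overlapped for every member on both surfaces, where 2.03% of all tested genes did not overlap on gel and 2.85% on plastic. The intervals show what these 4 libraries a group could resolve. For CTSK the female over male log2 change on plastic was -0.02 (95% interval -0.25 to 0.21), and for CTSH it was -0.01 (-0.25 to 0.23). For CTSL on gel it was 0.78 with an interval of -0.76 to 2.33, wider than for CTSK or CTSH and reaching further on the side of higher female levels.

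The surface changes of the sexes were also set against each other. For CTSB, CTSD and CTSF, called in female cells and not in male cells, the female change minus the male change was -0.37 (SE 0.19, adjusted p = 0.768), -0.39 (SE 0.27, adjusted p = 0.768) and -0.34 (SE 0.27, adjusted p = 0.773), so a difference between the sexes was not shown. Of the 10 members 0 passed this test, and 0 had an unadjusted p under 0.05. Of all 14530 genes 0% passed by edgeR, with 627 at an unadjusted p under 0.05 and 0 called by DESeq2 or limma-voom.

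The members differed in how far libraries of 1 group lay apart. The biological coefficient of variation, the spread between replicates after counting noise is removed, was 0.663 for CTSL and 0.306 for CTSC, against a median of 0.182 over all tested genes. It was 0.112 for CTSA, 0.116 for CTSK and 0.120 for CTSH. The high gel values of CTSL came from female 1, female 4 and male 4, and the same 3 cultures had the 3 highest CTSC values on gel (266, 308 and 325 CPM, against 140 to 177 CPM in the other 5) and on plastic (122, 96.6 and 83.0 CPM, against 51.2 to 68.1 CPM). For CTSL on plastic this order did not hold, as male plastic 3 at 3.77 CPM lay above female plastic 1 and male plastic 4.

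Some markers of other cells and states, CDH5 and ACTA2 among them, moved with these cultures. CDH5, the endothelial cadherin, had 174, 88.8 and 87.9 CPM in female plastic 1, female plastic 4 and male plastic 4, against 21.0 to 42.3 CPM in the other plastic libraries. On gel CDH5 had 20.3, 47.1 and 44.8 CPM in female gel 1, female gel 4 and male gel 4, against 4.97 to 11.2 CPM in the other gel libraries. PECAM1 was also highest in female 1, female 4 and male 4, at 61.2 to 124 CPM on plastic, against 21.5 to 41 CPM in the others. Not every endothelial marker followed these cultures in every group: ERG had 106 to 114 CPM in female gel and CLEC14A 63.2 to 69.5 CPM in female plastic. All 14 endothelial markers listed were tested. On plastic 3 rose and 0 fell in female cells, beside 12.7% and 11.3% of all tested genes. In male cells 2 rose and 0 fell, beside 12.9% in each direction. The 14 markers summed to 276 to 650 CPM in female plastic and 248 to 403 CPM in female gel. In male cells the sum was 260 to 414 CPM on plastic and 206 to 406 CPM on gel. By culture, the sum was highest in the same cultures on both surfaces. On gel it was 391, 403 and 406 CPM in female gel 1, female gel 4 and male gel 4, against 206 to 267 CPM in the others. On plastic it was 650, 508 and 414 CPM in female plastic 1, female plastic 4 and male plastic 4, against 260 to 346 CPM in the others. ACTA2, the smooth muscle actin of myofibroblasts, was lowest in the same cultures, at 2420, 2270 and 2500 CPM in female gel 1, female gel 4 and male gel 4, against 3950 to 5840 CPM in the other 5 gel libraries. The 5 listed myofibroblast markers rose on plastic in both sexes, beside 12.7% of all tested genes called higher in female and 12.9% in male cells. Their summed level was 17200 to 33200 CPM in female plastic, 4260 to 9570 CPM in female gel, 24700 to 30600 CPM in male plastic and 4630 to 8340 CPM in male gel. On gel this sum was lowest in female gel 1, female gel 4 and male gel 4, at 4660, 4260 and 4630 CPM, against 7070 to 9570 CPM in the other gel libraries. The part of these markers in the levels of CTSL and CTSC was not tested.

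**Figure D3:**
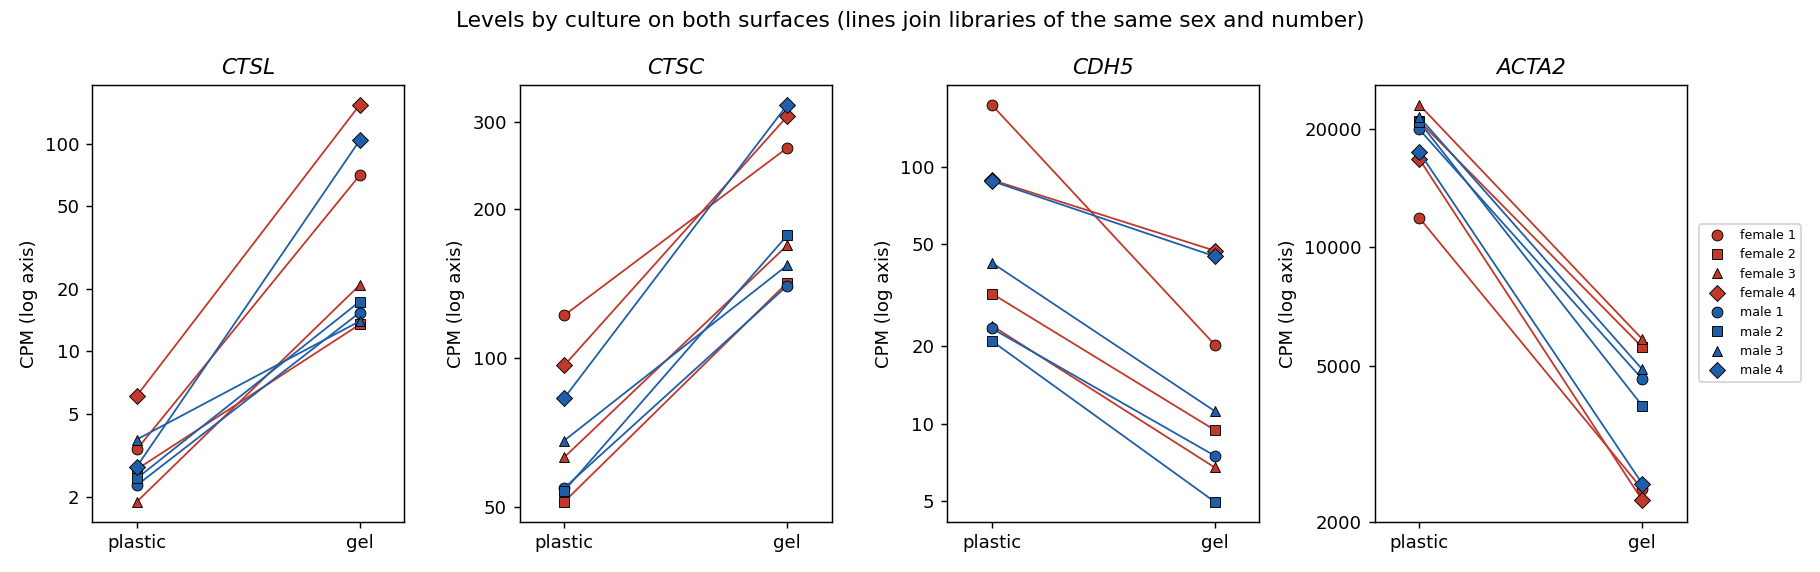
CPM (log axes) of CTSL, CTSC, the endothelial marker CDH5 and the myofibroblast marker ACTA2 on plastic and gel, with lines joining libraries of the same sex and number. CTSL on gel is 154, 104 and 70.6 CPM in female 4, male 4 and female 1 and at most 20.9 CPM in the other 5 cultures, and the first 3 cultures also hold the highest CTSC and CDH5 and the lowest ACTA2.

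Macrophages and osteoclasts are the classic sources of CTSS, CTSC and CTSK, so their markers were checked. Of 16 leukocyte and macrophage markers 4 had enough reads to be tested. PTPRC, the pan-leukocyte phosphatase, had 0 counts in 15 of 16 libraries, and CD163 and CD3E had 0 in every library. The summed level of this list was 9.28 to 39.4 CPM in female plastic, 12.6 to 15.1 CPM in female gel, 9.14 to 18.1 CPM in male plastic and 6.33 to 13.9 CPM in male gel. The highest sum, 39.4 CPM, was that of female plastic 1. The 2 called members were LAPTM5, a lysosomal membrane protein, which rose on plastic (log2 2.14, SE 0.62, adjusted p = 0.0182 in female cells; 2.35, SE 0.65, adjusted p = 0.0137 in male cells), and CD14, a lipopolysaccharide co-receptor that fell (-1.40, SE 0.20, adjusted p = 7.51e-05 in female cells; -1.21, SE 0.20, adjusted p = 0.000253 in male cells). Of all tested genes, 12.7% were called higher and 11.3% lower in female cells, and 12.9% each way in male cells. LAPTM5 varied widely, from 4.62 to 33.7 CPM in female plastic, overlapping female gel at 1.12 to 4.97 CPM. In male cells LAPTM5 had 3.72 to 12.8 CPM on plastic and 0.565 to 2.6 CPM on gel. Of 6 osteoclast markers 1 was tested, the transcription factor NFATC1, which other cells also express, and it fell in both sexes (-0.61, SE 0.17, adjusted p = 0.0133 in female cells; -0.80, SE 0.17, adjusted p = 0.00204 in male cells). CALCR and OCSTAMP were at 0 in every library, and ACP5 averaged 0.017 CPM in female gel and 0 in the other groups.

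The cathepsin inhibitors had few measured members. Of 15 listed genes 4 were tested. CST3, or cystatin C, the main secreted inhibitor of cysteine cathepsins, had 263, 300, 288 and 266 CPM in male plastic 1 to 4, against 184, 127, 198 and 154 CPM in male gel 1 to 4, and rose by 0.75 on the log2 scale (SE 0.19, adjusted p = 0.00742). In female cells CST3 had 173, 289, 304 and 182 CPM on plastic, against 132, 202, 175 and 151 CPM on gel, with overlap, and its log2 change of 0.52 (SE 0.19) had an adjusted p of 0.0537. CSTB, the cystatin of the cell interior, averaged 27.7 CPM in female plastic and 37.2 CPM in female gel and fell (-0.42, SE 0.12, adjusted p = 0.0195). In male cells CSTB averaged 26.6 CPM on plastic and 28.1 CPM on gel (-0.08, SE 0.12, adjusted p = 0.682). CST6 was below the test's filter, with means of 0.0967 to 0.236 CPM.

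The lysosomal hydrolases, 37 of 39 listed tested, fell more often than they rose: 16 fell and 1 rose in female cells, and 7 fell and 3 rose in male cells, against 11.3% and 12.9% of all tested genes called lower. Their median log2 change was -0.38 in female and -0.20 in male cells. Without the cultures male 4, female 1 and female 4 the counts were 4 and 1 in female cells and 4 and 3 in male cells. All genes called in female cells were then 1948 in place of 3479, so the smaller counts do not show a loss particular to the hydrolases. MANBA (beta-mannosidase) averaged 10.6 CPM in female plastic and 23.8 CPM in female gel, and 10.9 CPM in male plastic and 24.9 CPM in male gel. It fell in both sexes, by 1.17 (SE 0.19, adjusted p = 0.000232) and 1.19 (SE 0.19, adjusted p = 0.000198) on the log2 scale. IDS, which removes sulfate from glycosaminoglycans, rose by 0.24 (SE 0.08, adjusted p = 0.0291) in female cells and 0.26 (SE 0.08, adjusted p = 0.0195) in male cells on the log2 scale. Of the partners of CTSA, NEU1 (neuraminidase) was called lower in male cells (-0.57, SE 0.18, adjusted p = 0.0321) and had -0.31 in female cells (adjusted p = 0.24), and GLB1 (beta-galactosidase) was called in neither (0.12, adjusted p = 0.477 in female cells; 0.20, adjusted p = 0.201 in male cells).

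Of 19 tested genes for activation and sorting, 3 fell and 2 rose in female cells, and 3 fell and 1 rose in male cells, close to the 11.3% lower and 12.7% higher of all tested genes in female cells and, for those that fell, to the 12.9% in male cells. M6PR, a mannose 6-phosphate receptor that carries the proenzymes, fell by 0.47 (SE 0.10, adjusted p = 0.00315) in female and 0.48 (SE 0.10, adjusted p = 0.00262) in male cells. SORT1, or sortilin, an alternative carrier, rose by 0.59 (SE 0.10, adjusted p = 0.000545) and 0.63 (SE 0.10, adjusted p = 0.000292). LGMN, the asparaginyl endopeptidase that processes cathepsins, was not called (-0.13, adjusted p = 0.598 in female cells; 0.06, adjusted p = 0.81 in male cells). Without male 4, female 1 and female 4, 0 of these genes fell and 1 rose in female cells. All genes called there were 1948 in place of 3479, so these counts cannot be set against the shares above.

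Lysosomal membrane and proton pump genes were near the share of all genes, with 3 of 25 lower and 2 higher in female cells and 2 lower and 3 higher in male cells. LAMP2, a major protein of the lysosomal membrane, averaged 188 CPM in female plastic and 263 CPM in female gel and fell (-0.48, SE 0.11, adjusted p = 0.00343), and it fell in male cells too (-0.70, SE 0.11, adjusted p = 0.000157). ATP6V0A1, a subunit of the proton pump, rose by 0.66 (SE 0.12, adjusted p = 0.000714) in female and 0.87 (SE 0.12, adjusted p = 6.01e-05) in male cells. Without male 4, female 1 and female 4, 0 fell and 1 rose in female cells, where all genes called were 1948 in place of 3479.

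Of 24 tested transcription factors and autophagy genes, 5 fell and 1 rose in female cells, beside 11.3% and 12.7% of all tested genes. In male cells 3 fell and 3 rose, near the 12.9% of all tested genes in each direction. TFEB, the transcription factor that induces lysosomal genes including cathepsins, had 11.5, 14, 15.7 and 9.79 CPM in female plastic 1 to 4, against 7.89, 8.27, 6.79 and 5.22 CPM in female gel 1 to 4. In male cells TFEB had 12.7, 14.6, 11.2 and 13.8 CPM on plastic, against 7.44, 4.18, 5.55 and 5.56 CPM on gel. TFEB was higher on plastic with no overlap in either sex (log2 0.86, SE 0.19, adjusted p = 0.00379 in female cells; 1.2, SE 0.20, adjusted p = 0.000281 in male cells). Whether TFEB had a part in the cathepsin levels was not tested. TFE3, a related factor, fell in female cells (-0.36, SE 0.11, adjusted p = 0.0301) and was not called in male cells (-0.26, adjusted p = 0.0985). MITF was called in neither (0.24, adjusted p = 0.472 in female cells; -0.38, adjusted p = 0.235 in male cells). SQSTM1, the autophagy receptor p62, averaged 228 CPM in female plastic and 463 CPM in female gel, and 220 CPM in male plastic and 413 CPM in male gel, and fell in both sexes (-1.02, SE 0.12, adjusted p = 2.04e-05 and -0.91, SE 0.12, adjusted p = 5.54e-05).

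**Figure D4:**
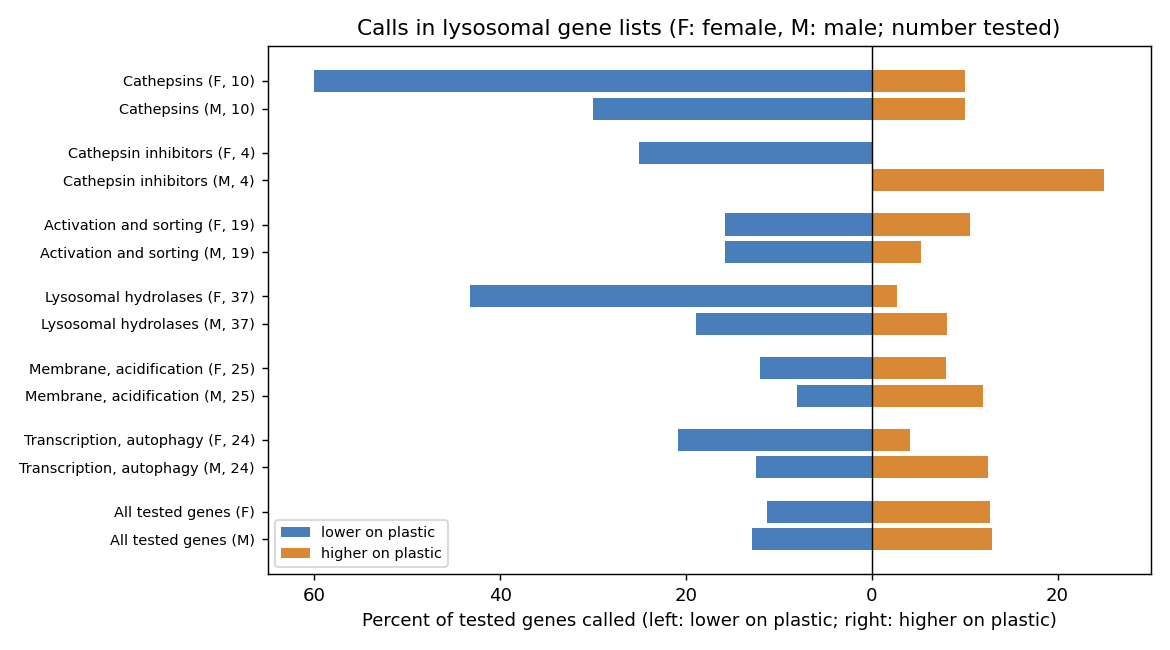
Percent of tested genes called lower (left) and higher (right) on plastic in each lysosomal gene list, female (F) above male (M), with the number tested in brackets and all tested genes at the bottom. The hydrolases show 16 of 37 lower in female and 7 of 37 lower in male cells, beside 11.3% and 12.9% of all tested genes.

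Genes with the most similar pattern were sought for CTSK and CTSS, by the Pearson correlation of deviations from group means over the 16 libraries, as a description with no test. For CTSK these were C5H12orf75 (0.91), PARP8 (0.88) and ITPR1 (0.88). For CTSS they were GAPVD1 (0.80), YIPF5 (0.79) and SUSD1 (0.77). CTSS had 45 to 89 counts per library, so much of its deviation can be counting noise and these likenesses carry little weight. The libraries share their depth and their cultures, and the values were picked as the highest of all tested genes with a mean of at least 5 CPM.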

How the data were processed

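Counts of 16 polyA RNA libraries were used as deposited by the authors: raw counts per gene, whole numbers, with no normalization. The submitters' processing notes name FastQC 0.11.5, Trimmomatic 0.36, HISAT2 2.1.0, SAMtools 1.3.1, featureCounts and the build Sscrofa11.1, without their order. How featureCounts treated strand is not given in the sources used here. Sense and antisense reads at overlapping genes, and reads shared by paralogs, can therefore not be told apart. Of 29576 entries, 24 were numbers rather than names and were dropped with 0.169% of counts. All 29552 remaining names matched RefSeq symbols, which gave positions on the same build. Protein and promoter sequences and exon lengths were not used here, so no motif, alignment or level per length is given.

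Genes were filtered with filterByExpr by group (14530 left) and tested in edgeR 4.0.16 by quasi-likelihood (R 4.3.3, robust, TMM factors 0.896 to 1.124) on 4 group means over all 16 libraries, two-sided, with Benjamini-Hochberg adjustment over all tested genes. The SE is the absolute log2 change divided by the square root of the F value of the test. The 95% intervals use this SE and 12 residual degrees of freedom. The p values also draw on spread estimated across genes, so interval and p need not match exactly. No library was a copy of another (chi-square per degree of freedom 10.54 to 87.58 within groups). Whether equal numbers mean 1 animal is not stated in the labels. Within a sex, same-numbered plastic and gel libraries had deviations from group means correlated at 0.13 to 0.49. Each of the 16 libraries was most like the one of the other surface sharing its number, so these are called cultures. The main tests did not use this pairing. The fit was repeated with DESeq2 1.42.0, limma-voom (limma 3.58.1), RLE factors, no filter, a filter of 1 CPM in 4 libraries, only the 8 libraries compared, the culture as a block, and leaving out libraries. Summing CTSL with CTSV, and recounting the gene lists without some libraries, were added after the data were seen.

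The members, gene lists and naming rule were chosen with earlier results of these data known. The rule names all 10 members, a fixed set of partners, inhibitors and factors, up to 2 called genes per direction and list with a mean of at least 5 CPM, the highest marker genes, and 3 similar genes each for CTSK and CTSS; the text describes a part of these. PDGFRA, LUM, DCN, CDH5, PTPRC, CD163, CD3E, CALCR, OCSTAMP and ACP5, and the similar genes of CTSL in the closing section, were picked after their values were seen. Python 3.11.15 with matplotlib 3.10.9 drew the figures.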

Additional observations from a re-analysis of the deposited data

Results flagged for a closer look

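In 6 of 40 groups of 4 libraries, 1 library lay apart from the other 3 by Dixon's gap to range ratio at the 95% level, which chance alone exceeds in about 1 in 20 groups. The largest ratio was that of CTSL in male gel 4, at 104 CPM with the other male gel libraries at 14 to 17.4 CPM. CTSK was low in female plastic 1 (365 CPM, others 471 to 482 CPM) and high in female gel 3 (373 CPM, others 320 to 326 CPM). In female plastic 4, CTSA was high (155 CPM, others 132 to 135 CPM) and CTSD was low (181 CPM, others 218 to 225 CPM). CTSZ was high in female gel 1 (37.0 CPM, others 29.1 to 30.1 CPM).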

How the results depend on the processing

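Calls of cathepsins on plastic against gel, 4 in male and 7 in female cells, ranged from 3 to 6 and from 7 to 8 when 1 library was left out, as all genes called ranged from 2849 to 3959 and from 2778 to 4422. Without male gel 2 and female plastic 4 the male count was 7 (all genes 4143, against 3741). Without male 4, female 1 and female 4 the female count was 4, and all genes called in female cells were 1948 in place of 3479, with 2 female libraries left per group. The counts of cathepsins called in the sex comparisons and in the difference of changes stayed at 0 under every alternative run. With the culture as a block the cathepsin counts were 5 in male and 7 in female cells (all genes 4286 and 3993), and the block changed no member's call other than CTSF in male cells. No block was possible for female against male, since no culture holds both sexes.

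Changes that reversed direction were of uncalled results, and their cause was not tested. Without male gel 2 and female plastic 4, CTSZ on plastic against gel in male cells was -0.01, female against male was 0.02 for CTSK on gel, and 0.10 for CTSF and -0.09 for CTSL on plastic, and the difference of changes was -0.06 for CTSK. Without the 3 cultures, female against male on gel was -0.01 for CTSC and 0.03 for CTSS, on plastic it was -0.03 for CTSC, 0.21 for CTSF, 0.10 for CTSK and -0.29 for CTSL, and the difference of changes was -0.03 for CTSC. With 1 library left out, plastic against gel in male cells ranged from -0.01 to 0.29 for CTSZ and -0.13 to 0.04 for CTSS. Female against male on gel ranged from -0.12 to 0.05 for CTSS, -0.05 to 0.50 for CTSC, -0.10 to 2.05 for CTSL and -0.12 to 0.02 for CTSK. On plastic it ranged from -0.06 to 0.07 for CTSK, -0.04 to 0.03 for CTSH, -0.23 to 0.10 for CTSF and -0.09 to 0.53 for CTSL. The difference of changes ranged from -1.73 to 0.43 for CTSL, -0.14 to 0.41 for CTSC and -0.03 to 0.13 for CTSK. Promoter windows were not run.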

Other observations

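Of the other cathepsin genes of the table, CTSO and CTSV were tested, and neither was called on plastic against gel in either sex by edgeR. CTSO, a papain-family member of uncertain substrates, averaged 17.9 CPM in female plastic and 14.5 CPM in female gel (log2 0.30, SE 0.22, adjusted p = 0.348), and 13.6 CPM in male plastic and 15.9 CPM in male gel (-0.22, SE 0.22, adjusted p = 0.507). CTSW, an enzyme of natural killer and cytotoxic T cells, had 0 to 3 counts per library.

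The genes whose deviations from group means were most like those of CTSL over the 16 libraries were TGFBR2 (a receptor of TGF-beta, r of 0.95), HGF (hepatocyte growth factor, 0.94) and ARSB (the lysosomal arylsulfatase B, 0.93), genes sought only once the CTSL values were known. Over the 10 libraries left without male 4, female 1 and female 4, the same measure was -0.39 for TGFBR2, 0.79 for HGF and 0.72 for ARSB, so the likeness to TGFBR2 rests on those 3 cultures. These are descriptions with no test.

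All 10 cathepsins together held 0.168 to 0.181% of the counts in female plastic, 0.290 to 0.347% in female gel, 0.170 to 0.191% in male plastic and 0.228 to 0.326% in male gel, with the lowest gel value in male gel 2. These are shares of raw counts, without the TMM factors, which were 0.896 to 0.984 on plastic and 1.048 to 1.124 on gel. With TMM the 10 genes summed to a median of 1860 CPM in female plastic and 3020 CPM in female gel. In male cells the median sum was 1940 CPM on plastic and 2680 CPM on gel.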
